A study of Mus musculus with 8 samples.

Results

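Vesicle traffic genes were taken from a spotted array of muscle genes by the start of their symbols: the Rab, ARF, Arf-like and SAR1 small GTPases, SEC genes, coat and adaptor subunits (COPI, AP-1 to AP-4, clathrin), SNAREs (VAMP, STX, SNAP), and the TMED, SCAMP and YIPF membrane proteins. The rule found 52 genes on 112 spots, out of 2922 genes on 6610 spots that list 1 gene. By their textbook roles 24 of the 52 were classed as secretory, 13 as endocytic, 7 as shared between both routes and 8 as other. They were assigned by symbol only. The symbols name human genes and the RNA came from mouse cells, so what a spot bound may be the mouse ortholog or a related transcript.

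The RNA came from C2C12, a mouse myoblast line that can form muscle fibres in culture, in a growing medium of DMEM with glutamine and fetal bovine serum. Cells received control medium (MBN) or medium in which CAPAN-1 cells, from a human pancreatic cancer, had been grown (MBC), for 0, 14 or 24 h. As known of the study, its question was how factors from the tumour cells change the metabolism of muscle cells. There were 4 comparisons. Conditioned medium was set against the matched hour in MBC14 over MBN14 and MBC24 over MBN24, and against 0 h in MBC14 over MBN0 and MBC24 over MBN0 (the numbers are hours). Each has an array A, on which Cy5 marks the conditioned RNA, and an array B of the same RNAs with the dyes exchanged. The label fields disagree on the dyes of array B of MBC14 over MBN0, and the dye field was followed.

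Proteins made for secretion leave the endoplasmic reticulum in COPII-coated vesicles, and COPI-coated vesicles carry material back and within the Golgi. Endocytosis starts at the plasma membrane, where the adaptor AP-2 gathers cargo and clathrin forms the cage around the bud. Small GTPases of the ARF and SAR1 type recruit coats, Rab GTPases give each compartment its identity, and SNAREs on facing membranes drive fusion. In muscle cells the same machinery delivers adhesion proteins and receptors to the surface and cycles the insulin-regulated glucose transporter between endosomes and the plasma membrane.

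Each array gives 1 signed score per spot, whose scale, log base and direction are not given in the sources used here. All values below are therefore in score units, centred on the median of each array, and no fold changes are given. Arrays A and B of a pair correlated negatively as deposited, at -0.32, -0.28, -0.13 and -0.27 over all genes and at -0.50, -0.36, -0.38 and -0.58 over the 52 genes, in the order in which the comparisons are named above. The main reading therefore takes the scores as Cy5 over Cy3 and turns the sign of array B. The other reading, conditioned over control, leaves both arrays as deposited. The labels do not settle which one is right, and scores of reference over test would turn every sign given here. If the scores are conditioned over control, the turned values compare the dyes and not the media, also where all 8 turned arrays share a sign. A dye effect on single genes was not tested. The scores are ratios, so neither the level of a gene nor the presence of a cell type's markers can be read from them, and depth is unknown. In bulk RNA, fewer cells with a transcript and less of it per cell cannot be told apart. Of the 8 myoblast markers listed, 4 were on the array (MYOD1, MYF6, DES and ITGA7), with matched-hour means from -0.43 to 2.22, and 1 (ITGA7) passed the matched-hour test as higher. Of the 4 blood genes on it (HBA1, HBA2, HBB and CD37) HBA2 and CD37 passed as higher, with means from -0.88 to 3.97 over the 4. Of the 2 endothelial genes on it (CLDN5 and VWF, means from -1.86 to 0.13) CLDN5 passed as lower, and none of the 5 epithelial genes was on the array. The part of these cell types in the results was not tested.

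Because arrays A and B hold the same RNAs, they were counted as 1 replicate and their SD (n = 2 arrays for every mean ± SD) is technical. The matched-hour test was limma's moderated test on 2 values per gene, the array means of the matched comparisons at 14 h and at 24 h, against 0, two-sided, with Benjamini-Hochberg adjustment over 2922 genes and a threshold of 0.05. These comparisons share no RNA, but the labels name no further cultures, so the p-values measure no spread between cultures of one hour. limma draws the spread between the 2 values of a gene towards that of all genes. RAB11B, with means of 1.09 and 1.19, had an SE of 0.38. A call thus depends mainly on the size of the mean. Single comparisons have no test. A gene passed the size rule in one if its mean was 1 score unit or more in size and both arrays reached 0.5 on the side of the mean.

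In the Cy5-over-Cy3 reading 3 of the 52 genes were higher in conditioned medium over both matched hours and 3 were lower. The higher ones were AP2S1, the small subunit of AP-2, ARF1, the GTPase that recruits COPI and other coats at the Golgi, and RAB40B, a Rab that serves as part of a ubiquitin ligase. The lower ones were ARL1, which brings golgin tethers to the trans-Golgi, RAB2A, a Rab between endoplasmic reticulum and Golgi, and YIPF3, a membrane protein of the Golgi. These are 5.77% of the 52 in each direction, where 3.08% of all genes were called higher and 2.12% lower. Before adjustment 17 of the 52 genes (32.7%) had a limma p under 0.05, against 22.8% of all genes. The median matched-hour mean of the 52 genes was -0.10 beside -0.05 for all genes, and 24 of the 52 lay above 0 beside 46.6% of all genes. Their median size was 0.44 beside 0.48. Read as conditioned over control, limma called none of the 52 and 0.0% of all genes (3 of the 52 and 91 of all genes had an unadjusted p under 0.05), and the smallest adjusted p among the 52 was 0.995. The 6 calls were thus made in the Cy5-over-Cy3 reading only, in which a dye effect on single genes was not tested. Within that reading they depended on the fit. The 4 arrays were also fitted singly, with the comparison as block and the array letter as a covariate. There limma called none of the 52 and no gene at all (12 and 498 had an unadjusted p under 0.05). With the correlation between arrays set to 0, a choice made after the data were seen, AP2S1 alone of the 52 was called, beside 28 of all genes. Without array A of both pairs limma called none of the 52 (8 had an unadjusted p under 0.05), and without array B it called 5, which were AP2S1, RAB5IF, RAB7A, VAMP5 and YIPF3. Of all genes these fits called 0 and 128. With each score set against its 11 neighbouring spots none of the 52 was called (9 unadjusted), beside 2 of all genes. Over all 4 comparisons AP2S1 and ARL1 were called, beside 9 of all genes. That last fit treats the 4 comparisons as separate although they share RNAs.

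**Figure D1:**
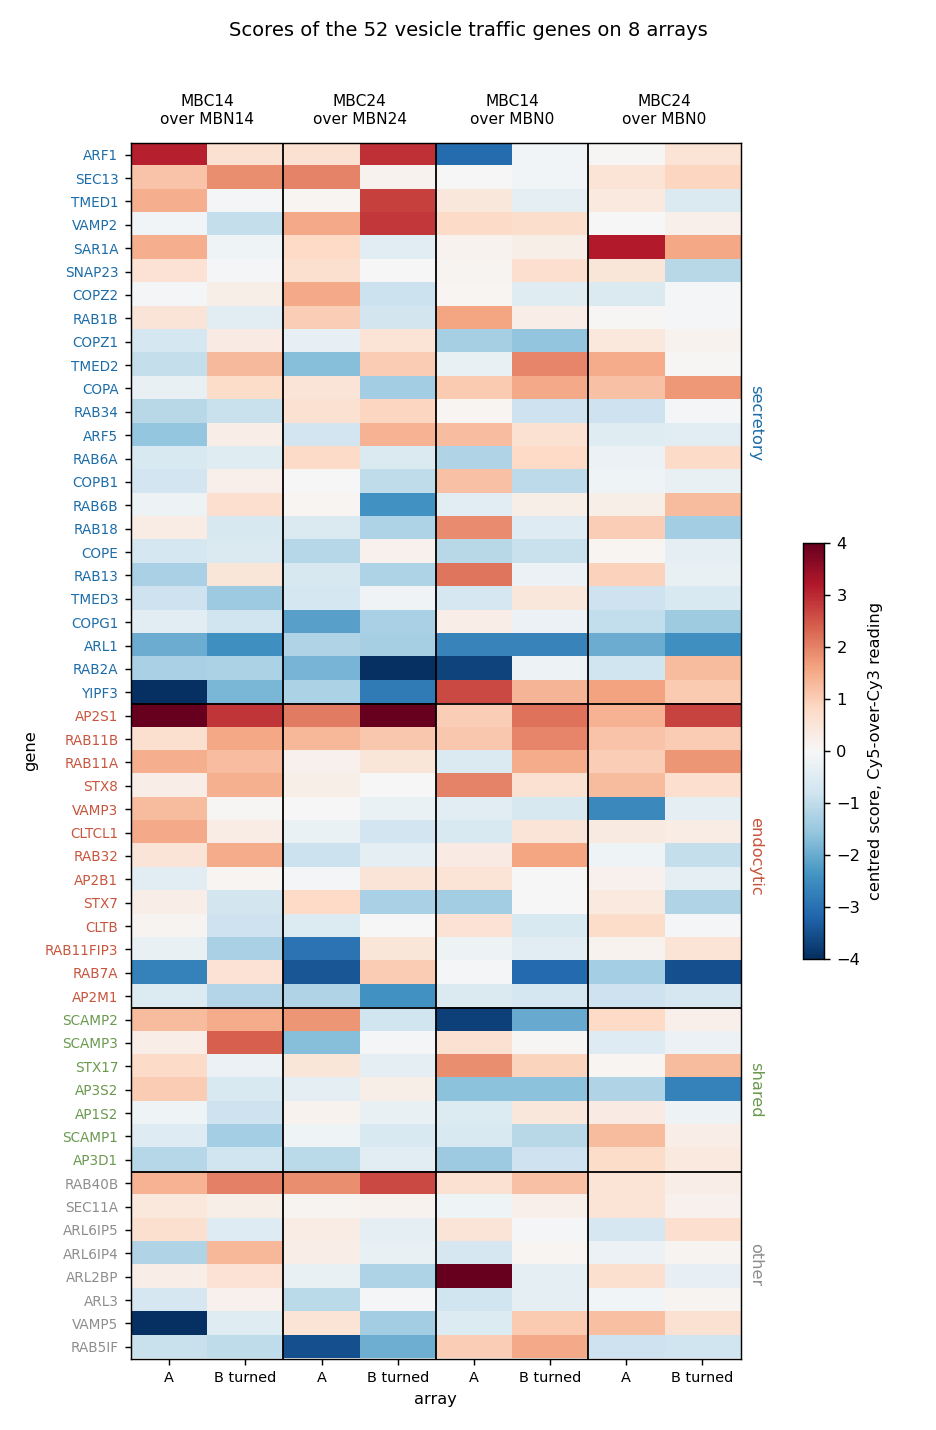
Heatmap of the 52 vesicle traffic genes (rows, grouped by class) on the 8 arrays (columns, arrays A and B of the 4 comparisons), in score units after array B was turned, with colours that end at -4 and 4. AP2S1 is above 0 and ARL1 below 0 on all 8 arrays, whereas YIPF3 is below 0 in the matched-hour comparisons and above 0 in those against 0 h.

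The promoters of the called genes that could be shown are printed here to show what stands before the start of each gene and how the promoters of the group differ. They are the 150 bases before the transcription start in mouse, from RefSeq (GRCm38.p6), 5′ to 3′ on the gene's strand. Capitals mark the motifs searched on both strands: the E-box CACGTG, the GC box GGGCGG, the CCAAT box CCAAT, and a 12-base motif bound by ZNF143 that was added after the Ap2s1 sequence had been read. The windows lie at chr7:16738294-16738443 (plus strand) for Ap2s1, chr11:59228268-59228417 (minus strand) for Arf1 and chr11:121388252-121388401 (minus strand) for Rab40b.
Ap2s1: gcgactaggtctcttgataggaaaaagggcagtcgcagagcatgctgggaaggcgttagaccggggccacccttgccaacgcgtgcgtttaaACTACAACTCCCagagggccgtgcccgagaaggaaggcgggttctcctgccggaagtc
Arf1: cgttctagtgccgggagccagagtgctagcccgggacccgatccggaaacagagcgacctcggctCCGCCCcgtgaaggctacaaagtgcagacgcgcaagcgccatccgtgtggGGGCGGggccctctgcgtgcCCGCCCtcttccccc
Rab40b: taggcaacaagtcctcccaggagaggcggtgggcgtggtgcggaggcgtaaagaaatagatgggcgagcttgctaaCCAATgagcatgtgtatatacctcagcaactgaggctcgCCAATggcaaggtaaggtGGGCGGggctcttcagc

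The Ap2s1 window holds 1 match to the ZNF143 motif (its only capitals) and none of the other motifs, the Arf1 window (the first of 2 starts listed) holds 3 GC boxes, and the Rab40b window holds 1 GC box and 2 CCAAT boxes. Promoters were found for 43 of the 52 genes. RAB2A had no entry, and the windows of ARL1 and YIPF3 lie within an annotated gene and are not printed. In the 250 bases before the start, GC boxes were present in 24 of the 43 (55.8%) beside 32.9% of 27025 promoters. They were present in 14 of 20 secretory genes (70.0%) and in 3 of 10 endocytic genes (30.0%). CCAAT boxes were in 16 of 43 (37.2%, against 34.5% of all) and E-boxes in 6 of 43 (14.0%, against 6.05%). The ZNF143 motif was in 2 of 43 (AP2M1 and AP2S1), or 4.65%, where 0.977% of all promoters held it. Because the motif was picked from the Ap2s1 sequence, the AP2S1 match was fixed in advance. The 2 shares therefore cannot be compared, and AP2M1 was the only other match. A match is a description of letters and names no bound factor.

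The AP-2 adaptor, which has 4 kinds of subunit, had 4 genes on the array, 3 of them among the 52, and they did not share a direction. AP2S1 scored 6.23 on array A and 2.85 on the turned array B of MBC14 over MBN14, and 2.09 and 5.83 for MBC24 over MBN24. It scored 0.98 and 2.17 for MBC14 over MBN0, and 1.40 and 2.70 for MBC24 over MBN0. All 8 arrays were above 0, both spots of the gene had the same sign on all 8, and the spots differed by at most 1.42. The means were 4.54 ± 2.39 at 14 h and 3.96 ± 2.64 at 24 h against the matched control, and 1.57 ± 0.84 and 2.05 ± 0.92 against 0 h. The matched-hour mean was 4.25 ± 0.39 (SE, limma adjusted p = 0.00199). Read as conditioned over control it was -0.09 ± 0.83 (limma adjusted p = 0.995), since array A is positive and array B negative as deposited.

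AP2M1, the medium subunit that binds tyrosine-based sorting signals, was below 0 on all 8 turned arrays. It scored -0.55 and -1.17 for MBC14 over MBN14, -1.21 and -2.43 for MBC24 over MBN24, -0.58 and -0.70 for MBC14 over MBN0, and -0.84 and -0.66 for MBC24 over MBN0. Its matched-hour mean of -1.34 ± 0.41 did not pass (limma adjusted p = 0.0929), and it passed the size rule at 24 h matched alone (-1.82 ± 0.87). AP2B1, the beta subunit, stayed near 0, with means of -0.17, 0.21, 0.28 and -0.09 in the 4 comparisons. It has a pair of spots at each of 2 places, and the means of the pairs had the same sign on 2 of 8 arrays and differed by up to 2.75. AP2A1, an alpha subunit that the symbol rule does not take, scored 0.21 and 0.30 for MBC14 over MBN14 and 1.44 and 3.01 for MBC24 over MBN24, where it passed the size rule as higher. It scored 0.81 and 1.15 for MBC14 over MBN0 and passed as lower in MBC24 over MBN0 (-0.64 and -1.44), with a matched-hour mean of 1.24 ± 0.50 (SE, limma adjusted p = 0.177). The signs of AP2S1 and AP2M1 opposed each other on every array, a difference between these genes that was not tested.

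Clathrin and the adaptors of the trans-Golgi network and endosomes showed smaller scores at the matched hours. The light chain CLTB (-0.36 ± 0.68 at 14 h and -0.28 ± 0.37 at 24 h) and the heavy chain CLTCL1, a human form enriched in muscle that mice lack (0.92 ± 0.86 and -0.52 ± 0.37), never passed the size rule in either reading. AP1S2, the small subunit of AP-1, also never passed (-0.50 to 0.07 over the 4 means). AP3D1 and AP3S2 are subunits of AP-3, which sorts cargo to lysosomes. AP3S2 was near 0 at the matched hours (0.22 ± 1.16 and -0.06 ± 0.42) but scored -1.65 and -1.63 on the arrays of MBC14 over MBN0, and -1.21 and -2.70 on those of MBC24 over MBN0. AP3D1 passed lower in MBC14 over MBN0 (-1.14 ± 0.44) and stood at 0.55 ± 0.25 in MBC24 over MBN0. In MBC14 over MBN0 its first spot was -3.0 and -1.52 on the 2 arrays and its second 0.1 and -0.14, so the pass rests on 1 spot.

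**Figure D2:**
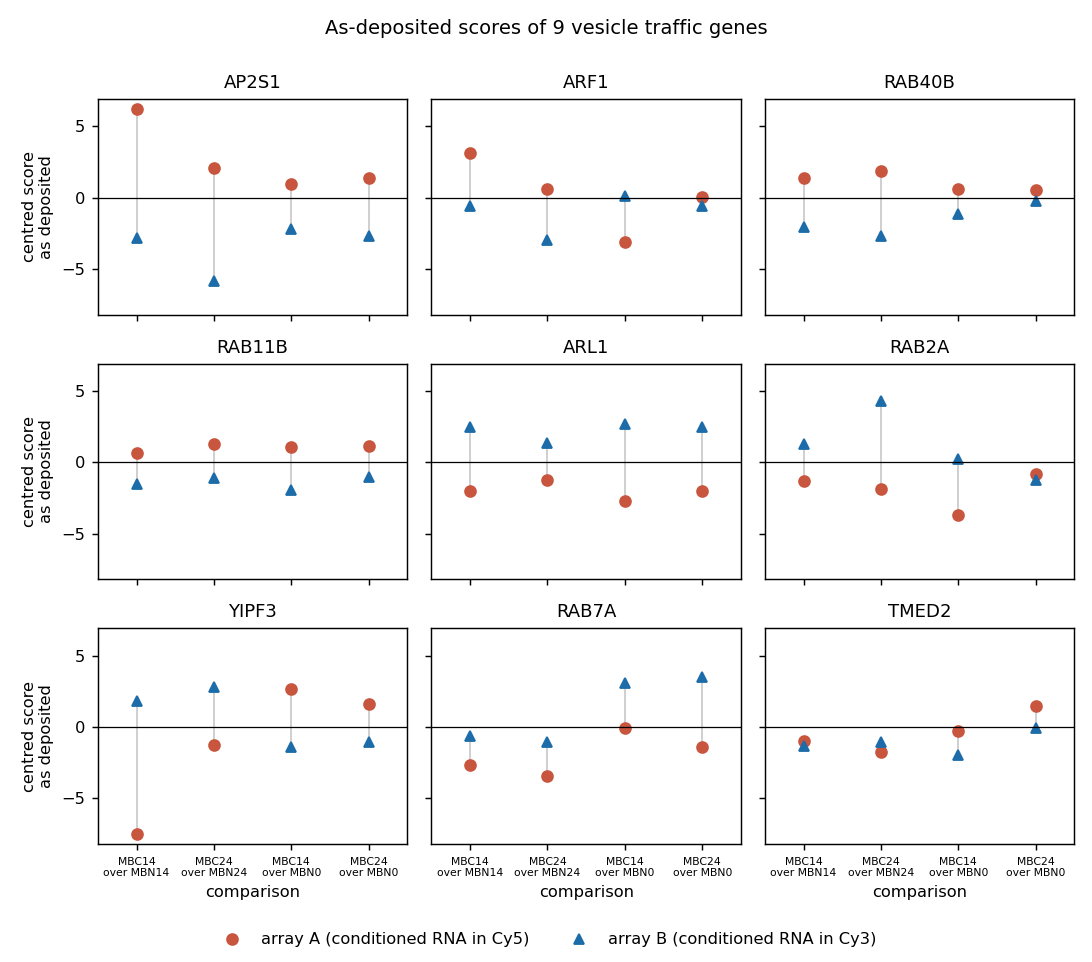
Scores as deposited (score units, centred on each array) of 9 genes on array A (circles) and array B (triangles) of the 4 comparisons. For AP2S1, ARF1, RAB40B, RAB11B, ARL1 and YIPF3 the circle and triangle lie on opposite sides of 0 in every comparison. For RAB7A and TMED2 they lie on the same side at both matched hours.

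ARF1 was high at the matched hours and not against 0 h. Its scores were 3.11 and 0.61 for MBC14 over MBN14 and 0.60 and 2.93 for MBC24 over MBN24, all 4 above 0. They were -3.07 and -0.11 for MBC14 over MBN0, and 0.06 and 0.55 for MBC24 over MBN0. The matched-hour mean was 1.81 ± 0.38 (SE, limma adjusted p = 0.0311), and the arrays of a pair differed by more than 2 units (SD 1.77 and 1.65). The spots of ARF1 had the same sign on 5 of 8 arrays, and on array A of MBC14 over MBN0 they were -0.10 and -6.04. ARF5, a close relative at the Golgi, had means of -0.64, 0.32, 0.92 and -0.47. Read as conditioned over control ARF1 was 0.04 ± 0.63 over the matched hours (limma adjusted p = 0.995) and ARF5 passed lower at 24 h (-1.08 ± 0.45).

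ARL1 scored below 0 on every array. It scored -1.97 and -2.46 for MBC14 over MBN14, -1.21 and -1.34 for MBC24 over MBN24, -2.67 and -2.68 for MBC14 over MBN0, and -1.98 and -2.46 for MBC24 over MBN0. All 8 arrays and both spots on each were below 0, and spots differed by at most 0.98. It was the one gene of the 52 that passed the size rule as lower in all 4 comparisons, and AP2S1 and RAB11B were those that passed as higher in all 4. Of all genes 0.240% were lower and 0.308% higher in all 4. The matched-hour mean was -1.75 ± 0.41 (SE, limma adjusted p = 0.0439), against 0.16 ± 0.38 in the conditioned-over-control reading (limma adjusted p = 0.995). The 0 h comparisons share the MBN0 RNA, and each conditioned RNA enters a pair of comparisons, so the 4 are not separate evidence.

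The remaining Arf-like genes, which the class list puts outside both routes, were small in score. ARL3, a GTPase of the cilium and microtubules, had means from -0.59 to 0.00. The binding proteins ARL6IP4 and ARL6IP5 had Cy5-over-Cy3 means from -0.29 to 0.22. ARL6IP4 passed as lower in the conditioned-over-control reading of MBC14 over MBN14 (-1.27 ± 0.10). ARL2BP, an ARL2-binding protein, reached 1.99 ± 3.37 in MBC14 over MBN0, where its arrays differed too widely to pass.

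The coats of the early secretory route did not move as a block. SEC13, a COPII cage subunit, scored 1.13 and 1.87 for MBC14 over MBN14 and 1.99 and 0.14 for MBC24 over MBN24, so it passed the size rule at 14 h only. Its matched-hour mean was 1.28 ± 0.39 (SE, limma adjusted p = 0.0889), and it lay near 0 in MBC14 over MBN0 (-0.05 ± 0.09). SAR1A, the GTPase that starts the COPII coat, passed in MBC24 over MBN0 alone, with 3.18 and 1.54 (mean 2.36 ± 1.16). The 6 COPI genes among the 52 had medians of -0.23, -0.46, -0.09 and -0.19 over the 4 comparisons, and their values differed between subunits of the one complex.

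Of the COPI genes, COPA (alpha subunit) scored -0.31 and 0.72 for MBC14 over MBN14, and 0.53 and -1.39 for MBC24 over MBN24. Against 0 h it passed as higher in both comparisons, with 1.04 and 1.5 at 14 h and 1.16 and 1.74 at 24 h. COPG1 (gamma subunit) went the other way at 24 h, with -2.18 and -1.31 against the matched control and -1.0 and -1.41 against 0 h. COPZ1 (zeta subunit, -1.46 ± 0.18) and COPE (epsilon subunit, -1.01 ± 0.15) passed as lower in MBC14 over MBN0 only. ARCN1, the delta subunit and the one other COPI gene on the array, is not taken by the symbol rule. It passed as lower against 0 h at both hours, with -1.56 and -2.67 at 14 h and -0.67 and -2.48 at 24 h, and had a matched-hour mean of 0.18 ± 0.42 (SE, limma adjusted p = 0.833). COPB1 (beta subunit) and COPZ2 (the other zeta form) never passed in the Cy5-over-Cy3 reading. Read as conditioned over control, COPB1 passed as higher in MBC14 over MBN0 (1.12 ± 0.10) and COPZ2 in MBC24 over MBN24 (1.19 ± 0.47). The COPB1 spots on the turned array B there were -3.24 and 1.14, so its value on that array rests on 1 spot. Its spots had the same sign on 3 of 8 arrays.

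YIPF3 was the lowest of the 52 genes over the matched hours and among the highest against 0 h. It scored -7.50 and -1.83 for MBC14 over MBN14 and -1.26 and -2.82 for MBC24 over MBN24, then 2.65 and 1.37 for MBC14 over MBN0 and 1.61 and 1.06 for MBC24 over MBN0. The 4 matched-hour arrays were all below 0 and the 4 arrays against 0 h all above it. Both spots had the same sign on all 8 arrays. The matched-hour mean was -3.35 ± 0.57 (SE, limma adjusted p = 0.0152), and -1.03 ± 0.84 in the conditioned-over-control reading (limma adjusted p = 0.995). The next lowest score after the -7.50 of array A at 14 h was -2.82.

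The p24 cargo receptors, which cycle between endoplasmic reticulum and Golgi, gave 3 genes. TMED2 had arrays A and B of the same sign as deposited at the matched hours, with -0.96 and -1.31 at 14 h and -1.71 and -1.02 at 24 h. Its conditioned-over-control mean was -1.13 ± 0.25 at 14 h and -1.36 ± 0.49 at 24 h, and -1.25 ± 0.39 (SE) over both, with a limma adjusted p of 0.995. In the Cy5-over-Cy3 reading it was -0.08 ± 0.39. The spots of TMED2 had the same sign on only 4 of 8 arrays. TMED3 passed the Cy5-over-Cy3 size rule at 14 h matched (-1.14 ± 0.42), with spots of the same sign on 1 of 8 arrays, and TMED1 (0.70 ± 1.06 and 1.40 ± 1.89 at the matched hours) never passed.

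Among the Rabs of the endoplasmic reticulum and Golgi, RAB2A stood apart at the matched hours. It scored -1.29 and -1.28 for MBC14 over MBN14 and -1.86 and -4.30 for MBC24 over MBN24. It scored -3.69 and -0.21 for MBC14 over MBN0, and -0.81 and 1.26 for MBC24 over MBN0. The 4 matched-hour arrays were all below 0, whereas the arrays against 0 h at 24 h fell on both sides. The matched-hour mean was -2.18 ± 0.48 (SE, limma adjusted p = 0.0353), and 0.61 ± 0.46 in the conditioned-over-control reading (limma adjusted p = 0.995). RAB34, a Rab of the Golgi and of macropinocytosis, passed as lower at 14 h (-1.01 ± 0.17) and stood at 0.72 ± 0.18 at 24 h. RAB1B, RAB6A, RAB6B, RAB13 and RAB18 never passed in the Cy5-over-Cy3 reading. Read as conditioned over control, RAB18, a Rab of the endoplasmic reticulum and lipid droplets, passed as higher against 0 h at both hours (1.20 ± 0.97 and 1.19 ± 0.27), and RAB6A, a Rab of Golgi transport, as lower in MBC14 over MBN0 (-1.0 ± 0.27).

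The recycling endosome Rabs RAB11A and RAB11B, which return cargo to the surface, were both on the positive side at the matched hours. RAB11B scored 0.65 and 1.54 for MBC14 over MBN14, 1.32 and 1.07 for MBC24 over MBN24, 1.09 and 1.95 for MBC14 over MBN0, and 1.14 and 1.03 for MBC24 over MBN0. All 8 arrays and both spots on each were above 0. It nevertheless missed the matched-hour test (1.14 ± 0.38 SE, limma adjusted p = 0.117). RAB11A passed the size rule at 14 h matched (1.34 ± 0.17) and in MBC24 over MBN0 (1.37 ± 0.56), with 0.83 ± 0.42 over the matched hours (limma adjusted p = 0.278). RAB11FIP3, an effector of RAB11, lay on the other side (-0.80 ± 0.71 and -1.25 ± 2.43) without passing.

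RAB7A, the Rab of late endosomes and lysosomes, was read in opposite ways by the comparisons. As deposited it scored -2.69 and -0.59 for MBC14 over MBN14 and -3.41 and -1.01 for MBC24 over MBN24, so arrays A and B were both negative. Against 0 h the deposited scores were -0.04 and 3.12 at 14 h, and -1.37 and 3.53 at 24 h, so array B was the opposite of array A there. RAB7A thus passed the size rule as lower in the conditioned-over-control reading at both matched hours (-1.64 ± 1.49 and -2.21 ± 1.70). In the Cy5-over-Cy3 reading it passed as lower in MBC24 over MBN0 (-2.45 ± 1.53). Its matched-hour mean was -1.93 ± 0.40 (SE, limma adjusted p = 0.995) as conditioned over control, and -1.13 ± 0.38 (limma adjusted p = 0.121) as Cy5 over Cy3. Both means are below 0 because array A was the larger in size at both hours, so they are not separate evidence. As Cy5 over Cy3 the arrays lay on opposite sides of 0 (-2.69 and 0.59, then -3.41 and 1.01). RAB32, a Rab of lysosome-related organelles, stood at 1.0 ± 0.67 and -0.61 ± 0.35 at the matched hours and passed nowhere.

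RAB40B and RAB5IF fall outside both routes in the class list. RAB40B scored 1.39 and 2.03 for MBC14 over MBN14 and 1.85 and 2.65 for MBC24 over MBN24, with smaller values of 0.61 and 1.16, then 0.55 and 0.26, against 0 h. All 8 arrays were above 0, and the spots had the same sign on 7 of them. Its matched-hour mean was 1.98 ± 0.39 (SE, limma adjusted p = 0.0236), and -0.36 ± 0.38 in the conditioned-over-control reading (limma adjusted p = 0.995). RAB5IF, a small membrane protein named for an interaction with RAB5, scored -0.88 and -1.03 at 14 h and -3.53 and -1.94 at 24 h matched. Its matched-hour mean of -1.85 ± 0.48 did not pass (limma adjusted p = 0.0584). SEC11A, a signal peptidase subunit, was near 0 throughout, with means from 0.02 to 0.36.

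The SNAREs passed in single comparisons only. VAMP2, a vesicle SNARE of fusion with the plasma membrane, scored 1.53 and 2.84 for MBC24 over MBN24, against -0.10 and -0.94 at 14 h. Its spots on array B at 24 h were -2.06 and 7.73, so that mean rests on 1 spot. VAMP5, a SNARE abundant in muscle, scored -5.66 and -0.50 for MBC14 over MBN14, then 0.56 and -1.38 at 24 h, and its matched-hour mean of -1.75 ± 0.58 did not pass (limma adjusted p = 0.117). The endosomal STX8 passed as higher in MBC14 over MBN0 (1.29 ± 0.96), as did STX17, a SNARE of autophagosome fusion (1.38 ± 0.69). STX7, a late endosomal SNARE, passed as higher in MBC24 over MBN24 only as conditioned over control (1.04 ± 0.35). VAMP3 (-1.49 to 0.65 over the 4 means) and SNAP23 (-0.32 to 0.38) passed in neither reading.

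The secretory carrier membrane proteins, which cycle between the Golgi, endosomes and the surface, changed sides between comparisons. SCAMP2 scored 1.25 and 1.49 for MBC14 over MBN14, and -3.74 and -2.03 for MBC14 over MBN0. At 24 h it scored 1.77 and -0.80 against the matched control, where it passed as higher in the conditioned-over-control reading (1.29 ± 0.69), and 0.80 and 0.21 against 0 h. SCAMP1 and SCAMP3 passed nowhere, with means from -0.94 to 0.76 and from -0.88 to 1.34.

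Counted over all 52 genes, the size rule in the Cy5-over-Cy3 reading gave 7 higher and 6 lower for MBC14 over MBN14, where 9.10% of all genes were higher and 10.8% lower. For MBC24 over MBN24 it gave 5 and 6, beside 7.94% and 9.69%. For MBC14 over MBN0 it gave 7 and 6, beside 7.29% and 8.38%, and for MBC24 over MBN0 6 and 4, beside 8.38% and 10.9%. Those 4 counts are 13, 11, 13 and 10 of 52. Read as conditioned over control, 3 genes passed for MBC14 over MBN14 (all lower: ARL6IP4, RAB7A and TMED2), beside 6.37% of all genes. Of the 6 for MBC24 over MBN24, beside 6.02%, COPZ2, SCAMP2 and STX7 were higher and ARF5, RAB7A and TMED2 lower. For MBC14 over MBN0, COPB1 and RAB18 were higher and RAB11A and RAB6A lower, beside 10.3%. For MBC24 over MBN0, RAB18 was higher and RAB2A lower, beside 6.84%.

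In the same direction at both matched hours 7 of the 52 genes passed in the Cy5-over-Cy3 reading (AP2S1, ARF1, RAB11B and RAB40B higher, ARL1, RAB2A and YIPF3 lower), or 13.5% beside 6.67% of all genes. As conditioned over control 2 passed (RAB7A and TMED2, both lower), or 3.85% beside 0.445% of all genes. In all, 26 of the 52 genes passed in at least 1 comparison of the Cy5-over-Cy3 reading, 12 in the other reading and 4 in both. Of all genes 50.7% passed in the Cy5-over-Cy3 reading, 25.3% in the other (23.1% of the 52) and 11.9% in both (7.69% of the 52). By these counts over at least 1 comparison the 52 genes passed about as often as all genes or less. In single comparisons of the Cy5-over-Cy3 reading 25.0%, 21.2%, 25.0% and 19.2% of the 52 passed, beside 19.9%, 17.6%, 15.7% and 19.3% of all genes. The 18 that passed in neither reading had Cy5-over-Cy3 means from -1.49 to 1.99.

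**Figure D3:**
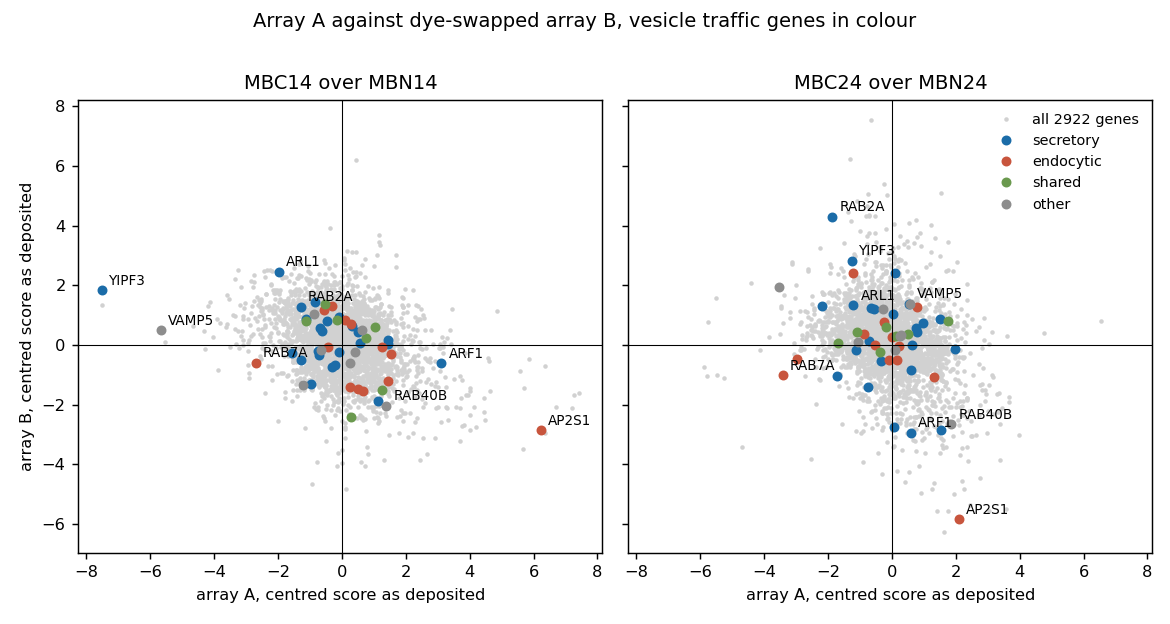
Deposited score of array A (horizontal) against array B (vertical), in score units centred on each array, for MBC14 over MBN14 and MBC24 over MBN24, with all 2922 genes in grey and the 52 vesicle traffic genes in colour. AP2S1 and RAB40B lie to the lower right and YIPF3, RAB2A and ARL1 to the upper left, whereas RAB7A and TMED2 lie at the lower left.

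The secretory and endocytic classes were compared by their medians, as a description without a test. In the Cy5-over-Cy3 reading of MBC14 over MBN14 the 13 endocytic genes had a median of 0.65 (0.28 on array A and 0.31 on array B) and the 24 secretory genes one of -0.23 (-0.54 and -0.13), beside -0.04 for all genes. The endocytic median was above the secretory one by 0.88, and by 0.82 and 0.44 on arrays A and B. Of the 13 endocytic means 7 lay above 0, the lowest of these being VAMP3 (0.65), and the next below was AP2B1 (-0.17). The 7 include CLTCL1 (0.92), which mice lack, and the median without it was not taken. The endocytic median at 14 h was 0.25 with each score set against 51 neighbouring spots, and 0.24 with the shared genes counted as endocytic. The gap was not seen at 24 h, where the medians were -0.25 and -0.12 beside -0.11 for all genes, and the difference on arrays A and B was -0.13 and 0.53. It was -0.04 in MBC14 over MBN0 and 0.29 in MBC24 over MBN0, with 0.29 on array A and 0.00 on array B. Read as conditioned over control the differences were 0.37, -0.47, 0.02 and -0.02. The order of the classes thus differed between comparisons and readings.

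Within the endocytic class, AP2S1, RAB11A and RAB11B passed the size rule as higher at 14 h matched and none passed as lower. Within the secretory class ARF1 and SEC13 passed as higher and ARL1, RAB2A, RAB34, TMED3 and YIPF3 as lower. At 24 h matched these counts were 2 higher and 1 lower for the endocytic class, and 2 and 4 for the secretory class. Against 0 h they were 3 and 0, then 3 and 1, for the endocytic class, and 2 and 3, then 3 and 2, for the secretory class. The share that passed was 20.8% to 29.2% in the secretory class, 23.1% to 30.8% in the endocytic class and 15.7% to 19.9% of all genes. The 7 shared genes had medians of 0.22, -0.09, -0.87 and 0.50, and the 8 other genes 0.07, -0.22, 0.23 and 0.07.

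**Figure D4:**
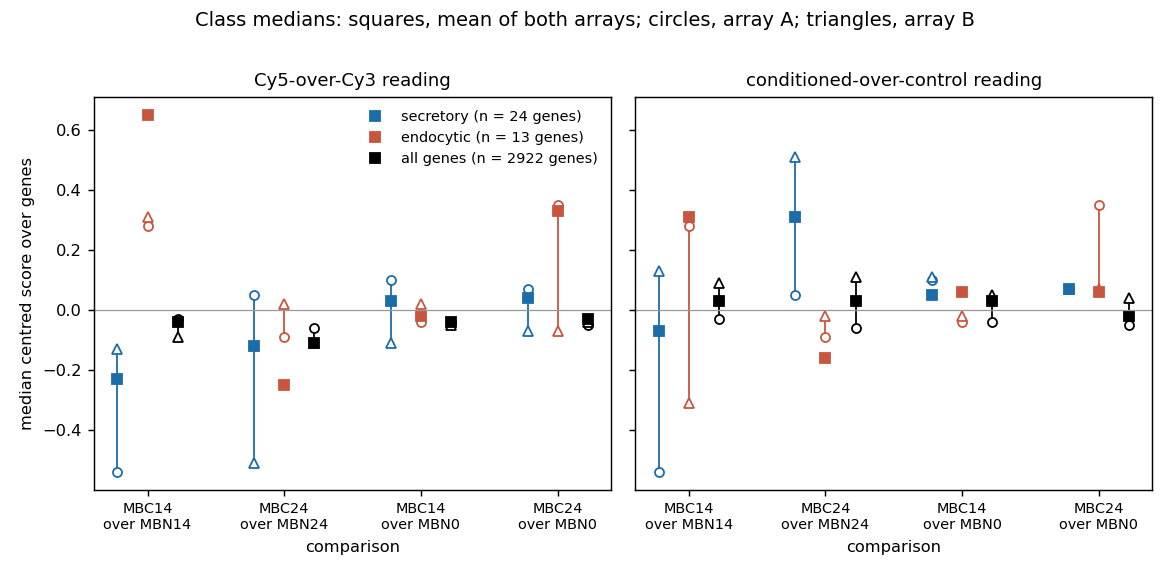
Median score (score units) of the 24 secretory and 13 endocytic genes and of all 2922 genes in the 4 comparisons, for both readings, with squares for the mean of the arrays and circles and triangles for arrays A and B alone. At 14 h matched in the Cy5-over-Cy3 reading the endocytic median is 0.65 and the secretory median -0.23, and elsewhere the classes lie closer or change order.

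Other genes of the same pathways were taken from a list of 172 cargo receptors, tethers, GTPase regulators, fusion factors and endocytic proteins, 53 of which were on the array. None of the 53 was called higher over the matched hours and 2 were called lower, both of them endocytic, beside 3.08% of all genes called higher and 2.12% lower. CYTH2, an exchange factor that activates ARF GTPases, scored -4.19 and -1.31 at 14 h and -3.03 and -1.59 at 24 h, with a matched-hour mean of -2.53 ± 0.39 (SE, limma adjusted p = 0.00904). LRP1, an endocytic receptor, scored -5.53 and -0.09, then -0.64 and -2.37, with a mean of -2.16 ± 0.44 (SE, limma adjusted p = 0.0260). The membrane-bending protein BIN1 did not pass (-2.35 ± 0.69, limma adjusted p = 0.0819). The largest positive means were those of the adaptor GGA1 (1.37 ± 0.39, limma adjusted p = 0.0722), the clathrin assembly protein PICALM (1.04 ± 0.39) and the SNARE disassembly cofactor NAPA (0.91 ± 0.40). The medians were 0.26 for the 21 secretory and -0.33 for the 29 endocytic genes of this list, and none was called as conditioned over control.

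How far single spots can be trusted was read from the adjacent spots of each gene. Over the 8 arrays the duplicate spots of the 52 genes (56 pairs) correlated at 0.30 to 0.78, with an SD of 0.59 to 1.25 score units, beside 0.33 to 0.65 and 0.82 to 1.19 over the 3305 pairs of all genes. AP2S1, ARL1, YIPF3, RAB11B, AP2M1 and AP3S2 had spots of the same sign on all 8 arrays. The technical spread of a spot was thus near the size threshold of 1 unit, and the number of arrays limits the precision.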

How the data were processed

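Scores of 9984 spots on 8 spotted 2-colour arrays were used as deposited. The authors deposited 1 signed score per spot and array. Their making (background, normalisation, scale) is not stated in the labels or headers. The lowest was -23.57 and the highest 24.79, and a log2 ratio of 16-bit signals could not exceed 16. The test written for log2 ratios was applied to the scores unchanged. The symbols are from platform annotation dated 2016, in which 106 spots list several genes and 3268 none. Each array was centred on its median, spots of a gene were averaged, and array B was turned for the Cy5-over-Cy3 reading. The matched-hour test used limma 3.58.1 in R 4.3.3 and covered 2922 genes. A run on simulated data required only that the fit return the planted mean shifts. It held no dye effect and no paired arrays, so it does not give the error rate of the calls. Tables were made with Python 3.11.15, pandas 2.3.3 and numpy 2.4.6.

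The members, classes and lists were chosen with earlier results of these data known. Genes are described where they passed the matched-hour test, were among the 5 largest each way past the size rule, had one of the 3 largest matched-hour means of a class, or belong to a complex with several measured genes. Other named genes were chosen after their values were seen. Alternatives were the conditioned-over-control reading, other centring, scaling and averaging of spots, arrays left out, the comparison as block and all 4 comparisons.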

Additional observations from a re-analysis of the deposited data

Results flagged for a closer look

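Some genes had both arrays on one side of 0 at 14 h and both on the other at 24 h, in the Cy5-over-Cy3 reading. The differences, the 24 h mean minus the 14 h mean, were not tested. The share of all genes that changed sides in this way was not counted. At 14 h matched 787 of 2922 genes had both arrays above 0 and 915 both below, and at 24 h matched 771 and 981. Against the matched control they were -1.19 for ARL2BP, -1.43 for CLTCL1, -1.61 for RAB32, 1.73 for RAB34, -2.22 for SCAMP3 and 2.71 for VAMP2. The VAMP2 value at 24 h rests on 1 spot of array B.

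Against control medium at 0 h the differences were 1.69 for AP3D1, 1.90 for ARF1, -1.39 for ARF5, 1.74 for COPZ1, 0.67 for RAB11FIP3 and -1.51 for RAB32. They were -2.05 for RAB5IF, 1.63 for SCAMP1, 3.39 for SCAMP2 and -0.69 for SCAMP3. ARF1 and ARF5, related GTPases of the Golgi, changed sides in opposite ways by these means, from -1.59 to 0.31 and from 0.92 to -0.47. The -1.59 of ARF1 comes mostly from 1 spot of array A at -6.04, whose duplicate was -0.10. ARF1 stood near 0 on array B at 14 h (-0.11) and on array A at 24 h (0.06). The AP3D1 value at 14 h rests on 1 of its spots. RAB32 went from the positive to the negative side in both kinds of comparison, which share the conditioned RNAs. Its spots had the same sign on 5 of 8 arrays. Both comparisons with 0 h share the MBN0 RNA.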

How the results depend on the processing

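The 6 calls of the matched-hour test depended on the reading and the spread used. limma called 0 of the 52 genes as conditioned over control (3 with an unadjusted p under 0.05) and 0 with local centring on 11 spots (9 unadjusted). Of all genes it called 0 and 2 there. It called 6 without centring, on 51 spots or scaled to one MAD, and 7 with the median of spots. Beside these stood 160, 157, 155 and 189 of all genes. Over all 4 comparisons, which share RNAs but were fitted as separate, it called 2, beside 9 of all genes. Leaving out array A gave 0, beside 0 of all genes, and leaving out array B gave 5, beside 128. On 51 spots ARF1 was replaced by RAB5IF, so that 2 were higher and 4 lower, beside 97 and 60 of all genes. The arrays' letters mark the dye orientation only, and deviations of arrays with one letter correlated at -0.06 over 2922 genes, so the letters pair nothing. The arrays fitted singly, with the comparison as block and the letter as a covariate, gave 0 calls (12 unadjusted). The correlation within a block was 0.123, estimated from all 8 arrays. With it set to 0, chosen after seeing the data, 1 of the 52 genes was called (AP2S1), beside 28 of all 2922 genes. As conditioned over control the matched-hour means of AP2S1 (-0.09), ARL1 (0.16), RAB2A (0.61) and RAB40B (-0.36) changed sign. The cause of these differences was not tested.

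The size rule gave 3, 6, 4 and 2 genes as conditioned over control, for the matched 14 h and 24 h and then for 14 h and 24 h against 0 h. Of all genes 186, 176, 302 and 200 passed. A threshold of log2 of 3 gave 6 at 14 h matched, and 4 and 5 against 0 h. In the same order single arrays gave 19 to 21, 20 to 23, 17 to 21 and 13 to 16. All genes were not counted at that threshold or on single arrays. On 51 spots 7 genes were higher and 3 lower at 14 h matched, 3 and 6 at 24 h matched, and 9 and 4 at 14 h against 0 h. Of all genes 241 and 243, 245 and 222, and 211 and 205 were. On 11 spots they were 6 and 3 at 14 h matched, beside 182 and 184 of all genes.

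The secretory median of MBC14 over MBN14 was -0.54 to -0.13 on single arrays, and that of MBC24 over MBN24 was 0.31 as conditioned over control. In MBC24 over MBN0 it was 0.35 on 51 spots, 0.39 on 11 spots and -0.07 to 0.07 on single arrays. The endocytic median of MBC14 over MBN14 was 0.31 as conditioned over control, 0.61 without centring, 0.25 on 51 spots, 0.21 on 11 spots, 0.67 scaled to one MAD and 0.24 with shared genes, and 0.28 to 0.31 on single arrays. In MBC24 over MBN24 it was -0.16 as conditioned over control, -0.14 on 51 spots and -0.09 to 0.02 on single arrays. In MBC14 over MBN0 it was 0.06 as conditioned over control, 0.15 on 51 spots, 0.05 on 11 spots and 0.10 with the median of spots. In MBC24 over MBN0 it was -0.07 to 0.35 on single arrays. The other 46 class medians under alternatives moved by less than the SD between arrays.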
